A study of Mus musculus with 4 samples.

Results

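Wnt ligands are secreted, lipid-modified glycoproteins, and R-spondins are secreted proteins that raise the sensitivity of cells to them. The 10 genes described are Wnt2, Wnt4, Wnt5a, Wnt5b, Wnt7b, Wnt9a, Wnt10a, Wnt11, Rspo1 and Rspo3. All probe sets of the deposited table that the platform annotation gives to these symbols alone were taken. That gave 12 of the 22626 probe sets besides controls, for 9 of the 12393 genes with a symbol of their own. Rspo3 matched no probe set by symbol or Entrez identifier and was not analysed here. RNA came from fibroblast cultures of embryonic day 10 mouse embryos, kept in DMEM with 10% fetal calf serum. One group was Med1+/+ p53-/- and the other Med1-/- p53-/-, both labelled strain C57BL/6J, both without p53, and both from embryos of 1 cross of a Med1+/- p53-/- male with a Med1+/- p53+/- female. Each genotype had 2 arrays, with total RNA as the starting material and biotin as the label. The labels do not say whether the 2 arrays came from separate cultures or embryos. The p-values below therefore speak of the spread among these 4 samples alone, and that spread could be technical. Med1 encodes a Mediator subunit that contacts nuclear hormone receptors, and the study's title concerns stromal cells and their help to blood stem and progenitor cells.

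Wnt proteins bind Frizzled receptors. With the co-receptors Lrp5 and Lrp6 they stabilise beta-catenin, which then acts with TCF/LEF factors on target genes. With Ror2, Ryk or Ptk7 they act on cell polarity and movement, the branch for which Wnt5a and Wnt11 are best known. R-spondins bind Lgr receptors and restrain Znrf3 and Rnf43, ubiquitin ligases that clear Frizzleds from the cell surface. Mesenchymal cells are both sources and targets of Wnt signals in the embryo and in bone.

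The arrays were not on a common scale as deposited. The Med1-/- arrays were dimmer as deposited, with medians of 36.1 and 51.4 where those of Med1+/+ had 76.25 and 106.65. Values were therefore quantile normalized, so that a change is measured against the bulk of the probe sets. Med1 on its brightest probe set, 1448708_at, fell from deposited intensities of 664.6 and 885.6 (Med1+/+) to 25.4 and 40.2 (Med1-/-), the direction of the labels. Its normalized intensities were 630.5 and 590.8 against 47.1 and 52.96 (adjusted p = 3.15e-05 on the normalized values, limma). The genotypes differed at most features: of 8923 tested, 39.1% were called higher and 36.2% lower in Med1-/- cells (75.3% in either direction; limma, Benjamini-Hochberg adjusted p under 0.05). Differences between the embryos or cultures other than Med1 cannot be told apart from its loss. Of 14 fibroblast and mesenchyme markers 13 were above the filter, 6 higher and 4 lower, and their summed normalized intensity was 50860 to 54930 in Med1+/+ and 56310 to 59790 in Med1-/- cells. Epithelial markers (10 on the array, 6 above the filter, 1 higher and 5 lower) summed to 5043 to 5213 and 2336 to 2715. Most of the Med1-/- sum was Krt19 (2041 and 2460), the 1 called higher, while Cdh1, Krt8, Krt18, Dsp and Dsg2 were lower. Smooth muscle markers (5 of 6 above the filter, all 5 higher) summed to 13700 to 14070 and 29320 to 31150. Neural markers (2 of 6 above the filter, Nes and Tubb3, both higher) summed to 269.6 to 280.6 and 961.5 to 986. Skeletal muscle markers (2 of 5, Des and Acta1, both higher) summed to 121.6 to 127.3 and 1880 to 2068. Below the filter lay Sox2, Sox10, Map2 and Gfap of the neural list and Myod1, Myog and Myh3 of the skeletal muscle list. Endothelial markers had 1 of 8 above the filter, uncalled (68.42 to 79.7 and 87.02 to 127.3), and blood cell markers 0 of 6 (63.42 to 66.58 and 41 to 49.15); no marker of these lists was listed at 0. The part of these marker shifts in the results below was not tested, and in such bulk RNA fewer cells of a type and less RNA per cell cannot be told apart.

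The DNA just before the start sites is shown for Wnt11 and Rspo1, the tested members with the largest changes, and for Wnt4, whose normalized signal overlapped between genotypes. The windows are 250 bases long, 5′ to 3′ on the gene's strand, from RefSeq annotation of GRCm38.p6; 6 of the 10 members had a window in that table. Capitals mark any of 5 motifs searched on both strands: the nuclear receptor half-site AGGTCA, the TCF/LEF motif CTTTGAT (read as ATCAAAG from the opposite strand), the GC box GGGCGG (read as CCGCCC from the opposite strand), the CCAAT box, and the TATA box, spelled TATAAA.
Wnt11, first start site, chr7:98834862-98835111, plus strand: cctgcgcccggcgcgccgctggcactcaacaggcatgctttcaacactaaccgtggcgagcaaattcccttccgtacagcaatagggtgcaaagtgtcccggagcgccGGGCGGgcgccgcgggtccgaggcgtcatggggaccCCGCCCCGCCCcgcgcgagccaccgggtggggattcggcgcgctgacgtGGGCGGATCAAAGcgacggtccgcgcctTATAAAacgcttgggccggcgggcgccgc
Wnt11, second start site, chr7:98838595-98838844, plus strand: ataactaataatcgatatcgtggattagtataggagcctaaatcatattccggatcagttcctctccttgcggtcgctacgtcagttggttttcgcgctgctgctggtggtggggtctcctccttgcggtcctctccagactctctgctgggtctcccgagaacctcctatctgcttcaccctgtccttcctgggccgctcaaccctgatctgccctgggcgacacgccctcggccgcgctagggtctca
Rspo1, chr4:124986180-124986429, plus strand: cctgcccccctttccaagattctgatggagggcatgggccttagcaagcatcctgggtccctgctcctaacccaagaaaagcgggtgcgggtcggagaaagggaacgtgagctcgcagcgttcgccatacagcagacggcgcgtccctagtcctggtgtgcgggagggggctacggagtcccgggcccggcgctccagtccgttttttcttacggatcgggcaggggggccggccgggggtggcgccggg
Wnt4, chr4:137277385-137277634, plus strand: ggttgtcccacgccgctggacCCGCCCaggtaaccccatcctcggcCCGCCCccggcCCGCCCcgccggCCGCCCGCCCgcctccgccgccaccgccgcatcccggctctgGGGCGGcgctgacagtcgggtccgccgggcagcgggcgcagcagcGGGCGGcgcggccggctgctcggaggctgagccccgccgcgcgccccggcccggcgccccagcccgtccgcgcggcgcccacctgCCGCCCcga
The first Wnt11 window held a TATA box 29 to 24 bases before the start, a TCF/LEF match 51 to 45 bases before it and 4 GC boxes, 1 of which, 57 to 52 bases before the start, adjoined the TCF/LEF match; another 2 of the 4 overlapped by 1 base. The second Wnt11 window and the Rspo1 window held none of the 5 motifs, and the Wnt4 window held 8 GC boxes. Among the member windows not shown, a Wnt5b window also held a TCF/LEF match, 71 to 65 bases before its start. Windows of Wnt2, Wnt5b and Wnt9a held GC boxes, and that of Wnt2 a CCAAT box. Of 32851 windows of the same length, which include several per gene, 3.21% held the TCF/LEF motif, 12.4% the TATA box, 32.7% the GC box, 33.9% CCAAT and 14.0% the nuclear receptor half-site. A match is a string of letters and not a shown site. Distances are to the start site of each window. The annotated gene span begins inside the first Wnt11 window, at 98835084, and inside the Rspo1 window, at 124986401. GC content was 70.8% and 56.8% in the Wnt11 windows, 66.8% at Rspo1 and 85.2% at Wnt4, against a median of 52.4% over all windows.

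Of the 9 genes on the array, 6 passed the filter on dim probe sets (a mean of all 4 arrays at or above the 40th percentile), and 3 of these 6 were called higher (Wnt7b, Wnt11, Rspo1), 1 lower (Wnt10a) and 2 neither (Wnt4, Wnt5a). That is 4 of 6 called, against 75.3% of all features. The median log2 change of the 6 was 0.52, against 0.09 over all features. Rspo1 is among the 6 through its Med1-/- values, and members below the filter are not in these figures. Without a filter Wnt2, Wnt11 and Rspo1 were called higher, as were 23.7% of all features, and Wnt7b and Wnt10a were not called. Before the filter, 8 of the 12 probe sets had normalized values that did not overlap between genotypes, against 70.2% of all probe sets; among the 6 gene-level probe sets it was 5, against 88.2% of all tested features. Wnt11 and Rspo1 were the 2 members whose rise was larger than 4-fold and passed the test.

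**Figure D1:**
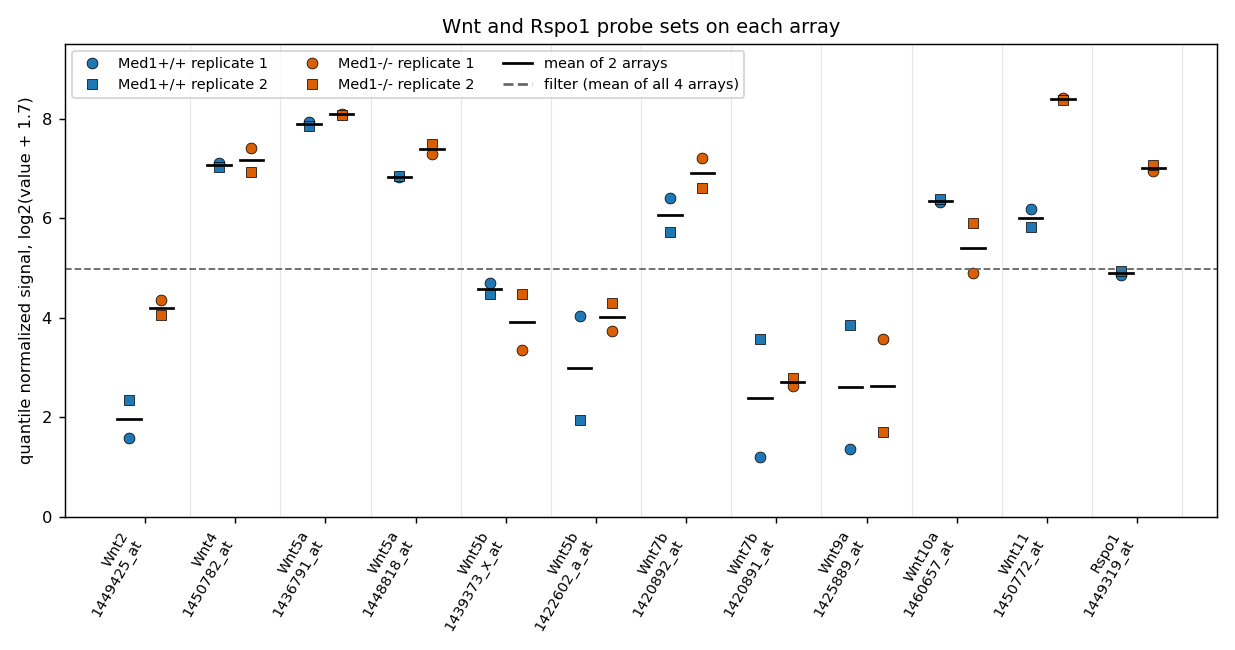
Quantile normalized signal, log2(value + 1.7), of the 12 probe sets on each of the 4 arrays (blue, Med1+/+; orange, Med1-/-; circles, replicate 1; squares, replicate 2; bars, means of 2 arrays); the dashed line is the filter, set on the mean of all 4 arrays. For Wnt11 and Rspo1 the Med1-/- points sit far above the Med1+/+ points, and for Wnt4 they overlap.

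Wnt11, a ligand of the polarity branch with roles in heart and kidney development (chromosome 7, 98835084 to 98854747, GRCm38.p6; probe set 1450772_at), rose in Med1-/- cells. Its normalized intensity went from 70.7 and 54.85 (Med1+/+) to 339.2 and 331 (Med1-/-). Both Med1-/- values were thus far above both Med1+/+ values. The mean log2 value went from 6.00 ± 0.25 to 8.40 ± 0.025 (SD, n = 2), a 5.26-fold rise (log2 change 2.40, SE 0.17; adjusted p = 4.91e-05, limma with Benjamini-Hochberg adjustment). The deposited intensities were 79.4 and 86.8 against 195.4 and 276.7, so the rise was there in the values as deposited, although the Med1-/- arrays were dimmer as a whole. Wnt11 was called higher under all 23 alternative settings, with log2 changes from 0.61 to 2.60. The nearest tested genes, Thap12 at 117 kb on one side (log2 change -1.16) and Uvrag at 32 kb on the other (-0.75), were both lower.

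Rspo1, an R-spondin that enhances the response to Wnt ligands and is known for its role in ovary development (chromosome 4, 124986401 to 125009102; 1449319_at), also rose. Normalized intensities went from 27.12 and 28.82 (Med1+/+) to 121.5 and 131.7 (Med1-/-). The arrays of each genotype lay close together and the genotypes far apart. The rise was 4.32-fold (log2 change 2.11, SE 0.21; SD on the log2 scale 0.058 in Med1+/+ and 0.081 in Med1-/-, n = 2; adjusted p = 0.000146, limma). Deposited intensities were 30 and 44.6 against 65.8 and 102.7. The Med1+/+ mean lay below the filter threshold of 4.98, so Rspo1 passed through its Med1-/- values; without a filter it was still called higher (adjusted p = 0.000714, limma), as were 23.7% of all features. The call was lost under scaling on the Bacillus subtilis control transcripts (log2 change 0.29, adjusted p = 0.241, limma). Of the flanking tested genes, Yrdc at 131.2 kb was higher (1.60) and Gnl2 at 20.89 kb lower (-0.93).

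Wnt7b, a ligand for epithelial growth and for bone formation (chromosome 15, 85535437 to 85581821), rose on its brighter probe set, 1420892_at. Normalized intensities went from 82.72 and 50.81 (Med1+/+) to 146.2 and 95.18 (Med1-/-). The genotypes did not overlap, but the lowest Med1-/- value was close to the highest Med1+/+ value. The change was 1.80-fold (log2 change 0.85, SE 0.30; 95% interval 0.12 to 1.57; adjusted p = 0.0381, limma). The direction came with the scaling: deposited intensities were 93.1 and 80.5 (Med1+/+) against 79.5 and 72.8 (Med1-/-), lower in the latter on both arrays. The call was lost without Med1+/+ replicate 2 (0.50, adjusted p = 0.196, limma) and without Med1-/- replicate 1 (0.54, adjusted p = 0.147). It was also lost with no filter (adjusted p = 0.0795, limma), with 75th percentiles equal (0.0845) and with no variance trend (0.0544), and Wnt7b was called lower on the Bacillus subtilis controls (-1.04, adjusted p = 0.0161). The dim second probe set, 1420891_at, had deposited intensities of 0.6 and 15.2 against 2.7 and 4.4 and overlapped.

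Wnt10a, a ligand of the beta-catenin branch needed in teeth and hair and known to hold back fat cell formation (chromosome 1, 74792019 to 74804176; 1460657_at), was the tested member that fell. Normalized intensities went from 77.92 and 81.47 (Med1+/+) to 28.08 and 58.05 (Med1-/-). Both Med1-/- arrays were lower, and they differed from each other by more than the brighter of them did from either Med1+/+ array. The change was -0.95 on the log2 scale (SE 0.35; from 6.35 ± 0.044 to 5.40 ± 0.71, SD, n = 2; 1.93-fold lower; adjusted p = 0.0414, limma). Deposited intensities ran the same way, 87.5 and 127.8 against 16 and 44.2. The call was lost without Med1+/+ replicate 1 (-0.97, adjusted p = 0.114, limma), without Med1+/+ replicate 2 (-0.91, adjusted p = 0.131), without Med1-/- replicate 1 (-0.45, adjusted p = 0.104) and with no filter (adjusted p = 0.0890). Wnt6, another beta-catenin ligand, lies 6.70 kb from Wnt10a. Its normalized intensities of 33.83 and 43.97 against 43.55 and 68.93 overlapped and it was not called (log2 change 0.49, SE 0.31; adjusted p = 0.191, limma), although it was called higher without Med1-/- replicate 1 (0.82, adjusted p = 0.0330). The difference between these neighbours was not tested.

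Wnt5a, the main ligand of the polarity branch and a product of many mesenchymal cells (chromosome 14, 28504543 to 28527448), had 2 probe sets that fell on different sides of the threshold. On the brighter, 1436791_at, normalized intensities were 243 and 230.7 (Med1+/+) against 271.4 and 269.1 (Med1-/-). These did not overlap but lay close (log2 change 0.19, SE 0.12; 95% interval -0.09 to 0.47; adjusted p = 0.183, limma). Wnt5a was called higher with array medians equal (0.32, adjusted p = 0.0419, limma) and with the mean over its probe sets (0.37, adjusted p = 0.0243). On the hybridisation controls it was called lower (-0.75, adjusted p = 0.00107), as on the Bacillus subtilis controls (-1.60, adjusted p = 1.25e-05). On 1448818_at they were 111.8 and 113.1 against 154.3 and 177.5, a 1.47-fold rise in the fit of all 13576 probe sets above the filter (log2 change 0.55, SE 0.15; adjusted p = 0.0163, limma). In that fit 36.3% of probe sets were called higher and 35.3% lower (71.6% in all), and of the 7 member probe sets in it 4 were higher and 1 lower. Deposited Wnt5a values were lower in Med1-/- cells on the first probe set (265.7 and 354.6 against 153.5 and 220.2) and overlapped on the second (124.5 and 178.3 against 84.3 and 140). Wnt5a was the member whose change on the brightest probe set was closest to the median of all features under each scaling other than quantile normalization, within 0.026 of it on the log2 scale.

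Wnt4, a ligand known for kidney and female reproductive tract development (chromosome 4, 137277635 to 137299501; 1450782_at), overlapped between genotypes after normalization. Normalized intensities went from 136.1 and 128.2 (Med1+/+) to 167.4 and 120.2 (Med1-/-). The Med1-/- arrays lay on either side of the Med1+/+ arrays. The log2 change was 0.10 (SE 0.19; 95% interval -0.35 to 0.56; adjusted p = 0.641, limma). The deposited values were 152.1 and 201.4 against 92.1 and 93.4.

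**Figure D2:**
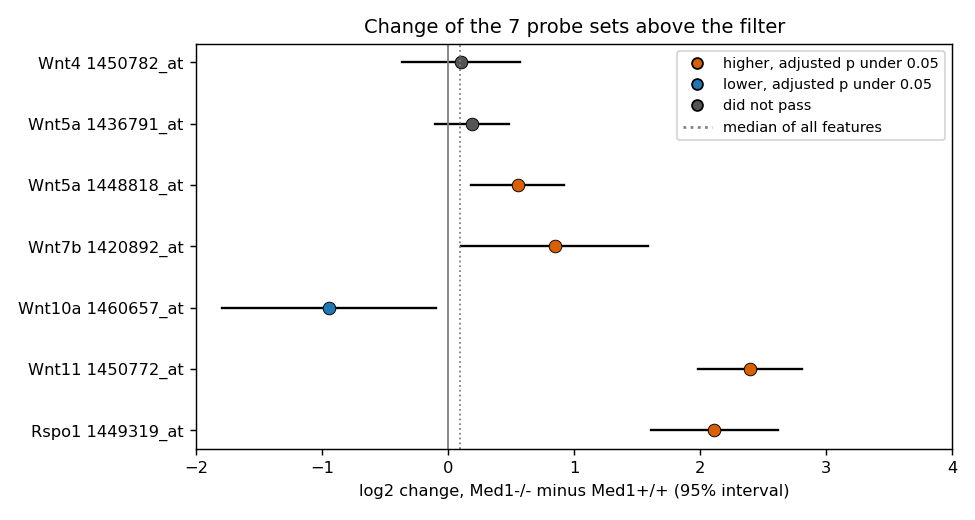
Log2 change of the 7 member probe sets above the filter, Med1-/- minus Med1+/+, with 95% intervals from the fit of all probe sets (2 arrays per genotype). Wnt11 and Rspo1 lie near 2.40 and 2.11, the interval of Wnt10a ends just below 0, and those of Wnt4 and of Wnt5a 1436791_at span 0.

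Wnt2, Wnt5b and Wnt9a stayed below the filter, so their values are given with no test of the main fit. Wnt2, a ligand of lung and vascular development (chromosome 6, 17985474 to 18032772; 1449425_at), had deposited intensities of 1.3 and 4.8 (Med1+/+) against 11.1 and 12.2 (Med1-/-). Both Med1-/- values were higher, also after normalization (1.275 and 3.35 against 18.62 and 14.95), on a probe set at the 21.5th percentile of signal. Without a filter it was called higher (log2 change 2.25, SE 0.54; adjusted p = 0.0149, limma), as it was with a filter at the 20th percentile, which it passed only through its Med1-/- values (mean log2 value 1.95 in Med1+/+ and 4.20 in Med1-/-); 30.8% of all features were higher there. Wnt5b, which lies on chromosome 6 (119432531 to 119544824) and acts in cartilage growth, had 26.5 and 31.4 against 5.3 and 16.3 on 1439373_x_at. After normalization (24.15 and 20.55 against 8.525 and 20.48) the genotypes nearly touched. On 1422602_a_at the Wnt5b values, 15.8 and 3 against 7 and 14.3, overlapped. Wnt9a, a ligand of joint formation (chromosome 11, 59306849 to 59333552; 1425889_at), had 0.9 and 18.9 against 6.2 and 1.4, which overlapped. Its replicates differed more than its genotypes.

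**Figure D3:**
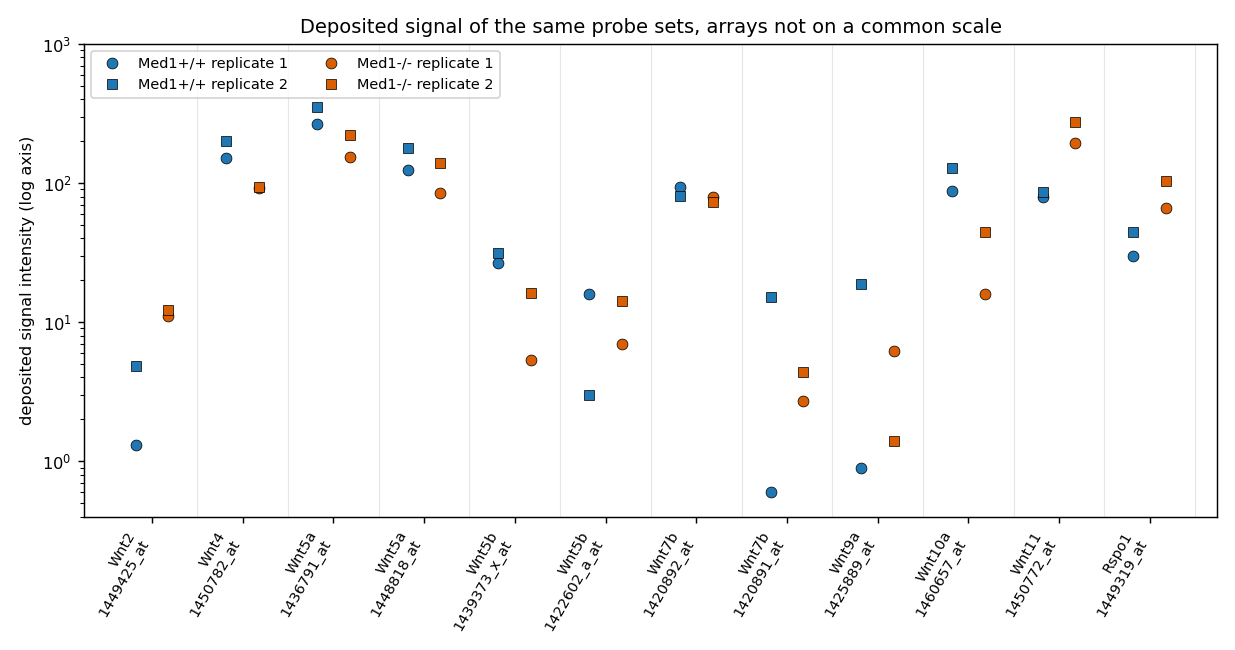
Deposited signal intensity (log axis) of the same 12 probe sets on each array, with no normalization added (blue, Med1+/+; orange, Med1-/-). Wnt2, Wnt11 and Rspo1 are higher on both Med1-/- arrays although those arrays were dimmer as a whole, while Wnt4, Wnt7b 1420892_at and Wnt10a are lower.

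The scaling between arrays moved all members together. In deposited values 3 of the 12 probe sets (Wnt2, Wnt11, Rspo1) were higher on both Med1-/- arrays and 5 lower, against 61.5% of all probe sets not overlapping in either direction. The same 3 were higher after quantile normalization too, and Wnt10a and Wnt5b 1439373_x_at were lower both ways. Wnt5a 1436791_at and Wnt7b 1420892_at turned from lower to higher. Over all features the median log2 change came to 0.09 after quantile normalization, 0.113 with 75th percentiles set equal, 0.298 with medians set equal, -0.757 as deposited, -0.773 with hybridisation controls equal and -1.62 with Bacillus subtilis controls equal. Relative to that median, Wnt11 was up by 2.22 to 2.31, Rspo1 by 1.86 to 2.02 and Wnt7b by 0.56 to 0.76 in all 6 scalings, and Wnt10a was down, at -1.19 to -1.04. As deposited, 2 members (Wnt11, Rspo1) were called higher where 2.97% of all features were, and 1 lower (Wnt10a) where 43.1% were. With medians equal it was 4 higher and 1 lower (45.3% and 30.4% of features), with 75th percentiles equal 2 and 1 (39.4% and 35.1%). Scaled on the hybridisation controls, 2 were higher and 3 lower (13.2% and 59.9%). Scaled on the Bacillus subtilis controls, 1 was higher, Wnt11, and 4 lower (1.54% and 87.5%).

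**Figure D4:**
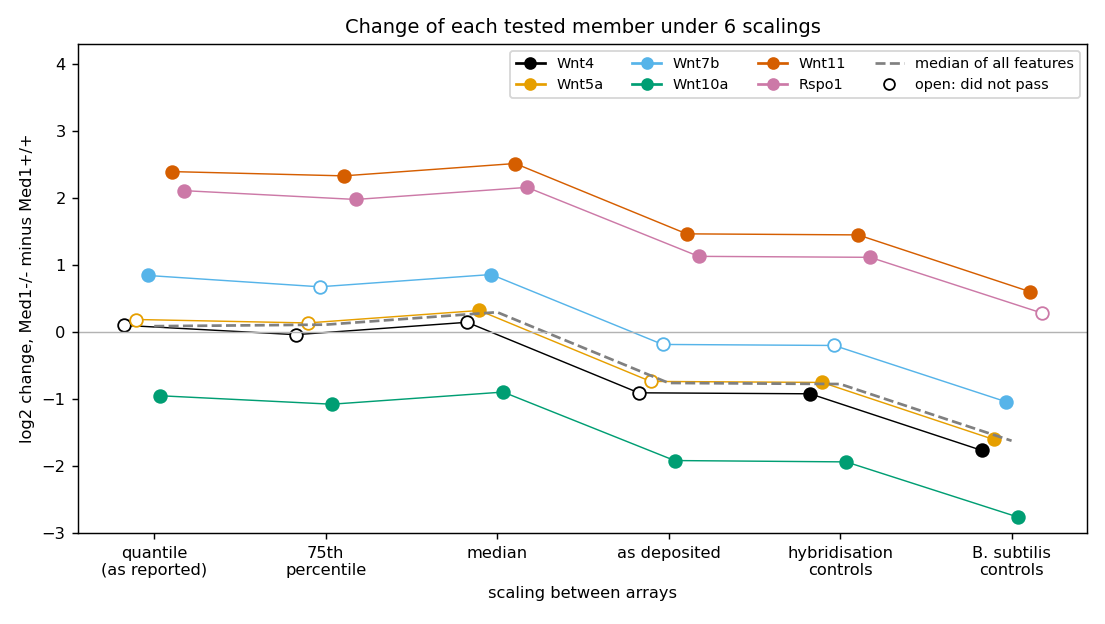
Log2 change of the 6 tested members, Med1-/- minus Med1+/+, under 6 scalings between arrays (filled, adjusted p under 0.05; open, did not pass; dashed, median of all features). The lines run parallel to the median; Wnt11 stays above 0 and called throughout, and Wnt4, Wnt5a and Wnt7b cross 0.

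The other Wnt and R-spondin genes were mostly dim: of 12 on the array, 1 (Wnt6) passed the filter after quantile normalization. Under each of the other scalings 2 passed it. Rspo2, named here after its values were seen, had deposited intensities of 88.9 and 160.6 (Med1+/+) against 4 and 9.9 (Med1-/-), so it ran opposite to Rspo1. Its mean lay at the 39.8th percentile, just under the filter. Without a filter it was lower (log2 change -3.11, SE 0.42; adjusted p = 0.00131, limma), and whether its change differs from that of Rspo1 was not tested. The 33 pathway genes below the filter held 4 lower (Rspo2, Dkk1, Dkk2 and Sostdc1) and 0 higher in that limma fit, also 0 higher at an unadjusted p under 0.05, against 22.7% and 23.7% of all features, and 1 of these, Dkk2, went from 103.7 and 166.6 to 0.7 and 2.4 as deposited.

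The list of Wnt processing and release also holds genes that act at the cell surface, such as glypicans. Of its 5 tested genes, 2 were higher and 1 lower, against 39.1% and 36.2% of all features, so the share that was higher lay at the background. Porcn, the enzyme that attaches the lipid, rose (normalized intensity 26.23 and 25.78 to 113.7 and 84; log2 change 1.84), and so did Gpc4, a cell surface glypican (1.83). The Med1+/+ mean of Porcn, 4.79, lay below the filter threshold, so it passed through its Med1-/- values; without a filter it was still called higher (adjusted p = 0.00259, limma). Wls, the carrier that brings Wnt proteins to the cell surface, fell from 1522 and 1681 to 660 and 834.8 (log2 change -1.11, SE 0.14; adjusted p = 0.000385, limma). Porcn and Gpc4 kept their sign in all 6 scalings but neither was called on the Bacillus subtilis controls, and Porcn was not called as deposited.

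Of 9 tested Frizzled and co-receptor genes 6 were higher and 1 lower, against 39.1% and 36.2% of all features. As deposited 0 were called higher and 1 lower by limma, against 2.97% and 43.1% of all features. Scaling on Bacillus subtilis controls gave 0 higher and 8 lower, against 1.54% and 87.5% of all features. The receptors Fzd2 (log2 change 1.52) and Fzd8 (1.35) and the polarity co-receptor Ptk7 (1.42) rose, with signs that turned on the Bacillus subtilis controls, while Lrp6, the co-receptor of the beta-catenin branch, fell (-1.01). Ror2, a receptor for Wnt5a named outside the rule, was higher by 0.82 (adjusted p = 0.0244, limma). Its deposited values, 137 and 299.3 (Med1+/+) against 127.3 and 276.2 (Med1-/-), overlapped. Of the other Fzd2 probe sets above the filter, 1418533_s_at was also called higher (1.33) and 1418534_at was not (0.22, adjusted p = 0.236, limma). Fzd8 was not called on the hybridisation controls either (0.36, adjusted p = 0.0676). Of the R-spondin receptors and the ligases they restrain, 3 of 5 were on the array and only Lgr6 passed the filter, with no call (log2 change -0.01, 95% interval -0.84 to 0.81; adjusted p = 0.973, limma).

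Inside the cell, 6 of 9 genes of beta-catenin turnover were higher and 3 lower, against 39.1% and 36.2% of all features. One of the 6, Btrc, passed the filter only through its Med1-/- values (mean log2 value 4.75 in Med1+/+ and 5.79 in Med1-/-). As deposited, 0 of the 9 were called higher and 3 lower by limma, against 2.97% and 43.1% of all features. Dvl1, which relays the signal from Frizzleds (log2 change 1.45), and the scaffold gene Axin1 (1.44) rose, with signs turned on the Bacillus subtilis controls, and Ctnnb1, which encodes beta-catenin (-1.12), and the scaffold gene Apc (-1.04) fell. All 5 tested nuclear partners were higher, against 39.1% of all features, among them the DNA-binding factor Tcf7l1 (1.33) and the co-activators Bcl9l (1.38) and Pygo2 (1.29). On the Bacillus subtilis controls all 5 were called lower, as were 87.5% of all features. The median change of the 5 partners was 1.29. As deposited 0 of the 5 were called in either direction, against 2.97% of all features called higher and 43.1% lower. The median of the 5 partners stayed above that of all features in all 6 scalings. None of 8 feedback readouts on the array reached the filter. Their summed normalized intensity was 100.3 and 118.8 (Med1+/+) against 100.2 and 93.16 (Med1-/-). Axin2 on 1436845_at had 34.9 and 40.3 against 10.5 and 11.1 as deposited, and 31.25 and 26.12 against 17.7 and 13.5 normalized. Without a filter it was not called (adjusted p = 0.164, limma). On its dimmer probe set, 1421341_at, normalized values of 1.05 and 1.65 against 5.025 and 5.675 ran the other way.

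Secreted antagonists, which bind Wnt proteins or their co-receptors, had 4 of their 11 genes on the array above the filter. Of these 4, 2 were lower and 0 higher by limma, against 36.2% and 39.1% of all features. At an unadjusted p under 0.05 it was also 0 higher. Sfrp2 fell from 641.3 and 571.3 to 56.22 and 24.9 (log2 change -3.95) and Sfrp4 by 1.73. Sfrp1 was uncalled on 1438620_x_at (-0.11). In the fit of all probe sets it was called lower on 1448395_at (-2.69, adjusted p = 0.000304, limma). Below the filter, Sfrp1 1460187_at differed by -3.15, and 1416594_at by -1.65 with overlapping values. Dkk3 was likewise uncalled on its brightest probe set (-0.22) and called lower on 1448669_at (-0.51, adjusted p = 0.0192, limma). In the polarity and calcium branch 5 of 10 genes were higher and 2 lower, against 39.1% and 36.2% of all features. Prickle1 (2.06), Vangl1 (1.27) and the calcium-regulated factor Nfatc1 (1.39) rose. On the Bacillus subtilis controls the Prickle1 call was lost (0.22, adjusted p = 0.336, limma) and the signs of Vangl1 and Nfatc1 turned. As deposited neither Vangl1 (adjusted p = 0.564, limma) nor Nfatc1 (0.453) was called, and on the hybridisation controls Vangl1 was not (0.0656). The calcium-dependent kinase gene Camk2d fell on its brightest probe set (-1.19). That call was lost without Med1+/+ replicate 2 (-0.79, adjusted p = 0.0963, limma), without Med1-/- replicate 1 (-0.71, adjusted p = 0.0659) and with the mean over probe sets (-0.44, adjusted p = 0.0658). The second Camk2d probe set, 1427763_a_at, differed the other way with no call (0.32, adjusted p = 0.295). Over all the pathway lists, 44 of 77 genes on the array were tested, and 24 of these were higher and 9 lower, against 39.1% and 36.2% of all features. The median log2 change of the 44 was 0.67, which was 0.58 above that of all features. That figure depends on the filter: Porcn and Btrc are among the 44 through their Med1-/- values. The 33 genes below the filter, Rspo2 and Dkk2 among them, are not in it. Without a filter 4 of these 33 were called lower and 0 higher, against 22.7% and 23.7% of all features. Under the other scalings 45 genes of these lists were tested, and their median was 0.40 to 0.41 above that of all features. As deposited, 2 of the 45 were called higher and 12 lower, against 2.97% and 43.1%.

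**Figure D5:**
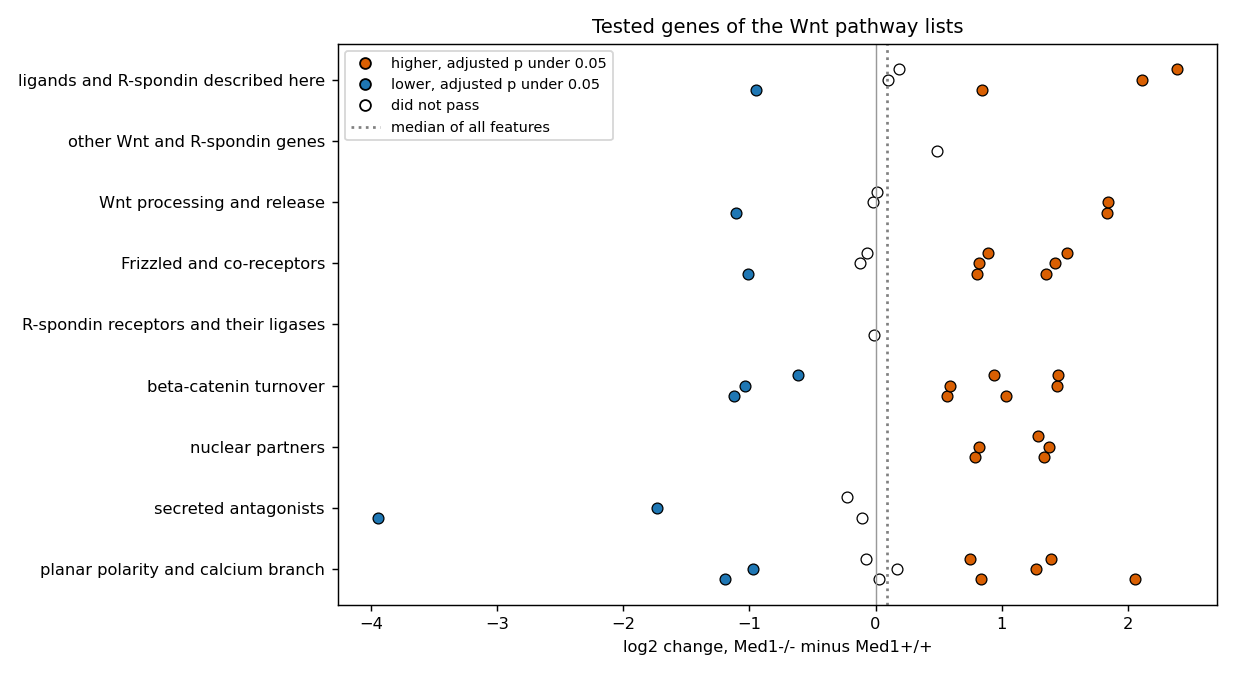
Log2 change, Med1-/- minus Med1+/+, of the 6 tested members (top row) and of each tested gene in the Wnt pathway lists (orange, called higher; blue, called lower; open, did not pass; dotted line, median of all features at 0.09). All 5 nuclear partners lie to the right of 0, and Sfrp2 at -3.95 lies furthest to the left.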

How the data were processed

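The authors deposited, per array, a linear signal intensity for each probe set; per the labels' protocols, labelling used an Affymetrix kit (3' IVT Express) on 50 ng of RNA. Probe summary and scaling methods are not given in the sources used here. After removal of 64 control probe sets, the 22626 others were quantile normalized and put on a log2 scale with 1.7 added to the deposited intensities' normalized values (the 10th percentile of the table), which understates changes of dim genes. A filter at the 40th percentile of the mean over arrays removed 9050 probe sets, and each gene kept its brightest probe set. Gene symbols are those of the platform annotation with Entrez updates (1 symbol for 20380 probe sets, several for 691, none for 1555). Probe sets ending in _x_at, _s_at or _a_at may also match other transcripts. The genotypes were contrasted in limma 3.58.1 (R 4.3.3) with lmFit and a trended eBayes, two-sided; p-values were adjusted by Benjamini-Hochberg across 8923 features and called under 0.05. There were 2 residual and 4.71 prior degrees of freedom. An exact permutation test of 2 against 2 arrays cannot go below p = 0.333. A further fit took all 13576 probe sets above the filter. With 4 arrays, their number limits the precision. Members and lists were chosen with earlier results of these data known. The text names the members, Med1 and, in each list, up to 4 called genes with the largest change. Ror2, Btrc, Rspo2, Dkk1, Dkk2, Dkk3, Sostdc1, Sfrp1, Lgr6, Wnt6, Axin2 and the neighbouring genes are named for their role, position or values. Alternatives covered scaling, filter, pseudocount, probe set choice, variance model, threshold, a replicate block and leaving out each array. Python 3.11.15 with matplotlib 3.10.9 made the figures.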

Additional observations from a re-analysis of the deposited data

How the results depend on the processing

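Over 23 alternative settings, each changing 1 choice, Med1 was called lower and Wnt11 higher throughout, and Rspo1 in 21 of the 22 settings that tested it. Wnt10a kept its direction in 22 settings and its call in 16; Wnt7b kept its call in 12 of 22. All features called higher numbered 265 as deposited, 1177 with hybridisation controls equal, 137 with Bacillus subtilis controls equal and 1890 with a 2-fold minimum, and those called lower 5341, 7801 and 1715 in the last 3, from 3490 and 3232. Members called lower, from 1, were 0 without a filter, with a filter at the 60th percentile, at an adjusted p under 0.01 and with a 2-fold minimum, 3 scaled on hybridisation and 4 on Bacillus subtilis controls. Members called higher, from 3, were 1 with the filter at the 60th percentile, where fewer genes were tested, and 1 on the Bacillus subtilis controls. Pathway genes called higher, from 24, were 2 as deposited, 11 and 0 on these controls in the same order and 14 with the 2-fold minimum; those called lower, from 9, were 21 and 38 on the controls. Leaving out 1 array at a time gave 0 to 1 members lower and 2 to 3 higher, 19 to 23 and 8 to 10 pathway genes, and 3077 to 3341 and 2710 to 3171 features. Of all calls, 51.9% were higher, against 59.9% with medians equal, 6.45% as deposited, 18.1% on hybridisation and 1.73% on Bacillus subtilis controls. The cause was not tested.

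Where a call stood on at least 1 side, signs turned as deposited for Wnt7b (-0.18) and Bcl9 (-0.20). With hybridisation controls equal they turned for Wnt4 (-0.92), Wnt5a (-0.75), Wnt7b (-0.20) and Bcl9 (-0.22). With Bacillus subtilis controls equal they turned for Wnt4 (-1.76), Wnt5a (-1.60), Wnt7b (-1.04), Wnt6 (-1.35), Fzd2 (-0.13), Ptk7 (-0.37), Fzd8 (-0.48), Dvl1 (-0.011), Axin1 (-0.27), Bcl9l (-0.37), Tcf7l1 (-0.39), Pygo2 (-0.39), Bcl9 (-1.05), Nfatc1 (-0.43) and Vangl1 (-0.52). The deviations of same-numbered arrays from their genotype means correlated at 0.273, and the labels do not say that the numbers mark a shared culture. With the replicate number as a block, 3825 features were higher and 3500 lower, with 3 members higher and 1 lower. The table has no background measure, so how far the dim probe sets of Wnt2, Wnt5b and Wnt9a stood above background is unknown.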
